A study of Mus musculus with 14 samples.

Results

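Interferon-stimulated genes are the transcripts that a cell makes after an interferon has bound its receptor. The 40 genes described here were picked by symbol from well-known genes of this kind, and all 40 were found among the 14449 genes of the expression table and among the 12329 that passed a filter on low values. RNA came from CD4+ T cells that carried the Foxp3eGFP reporter, the mark of regulatory T cells, and were sorted from BALB/c lymph nodes at postnatal day 35. The mice were wild type (7 libraries) or Il1rn-/- (7 libraries), which lack the receptor antagonist that holds interleukin-1 in check, and the series title places the work in arthritis with bone erosion. Both genotypes shared the strain, the age, the tissue and the reporter. Sample titles carry a letter whose meaning is not given: set a held 3 wild-type and 3 Il1rn-/- libraries, and set b held 4 of each. The labels do not say that the libraries of a group came from different animals, so the p-values measure the spread between libraries, which may be technical. The deleted gene, Il1rn, was not analysed here, so it gave no check of the genotype labels.

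Type I interferons signal through JAK1 and TYK2 to a complex that includes STAT2 and IRF9 and binds the interferon-stimulated response element (ISRE). Interferon-gamma signals through JAK1 and JAK2 and acts at the gamma-activated site (GAS). The induced genes include guanylate-binding proteins (GBPs) and immunity-related GTPases (IRGs) that attack the vacuoles of intracellular microbes, the OAS enzymes and IFIT proteins that recognise foreign RNA, cytosolic sensors, the STAT and IRF factors that feed the response, and the ubiquitin-like ISG15 with its protease. In regulatory T cells both interferon types are known to act on the cells themselves.

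The libraries differed in depth and in their share of ribosomal RNA, and some of these genes differed between the resulting library groups. Reads in the table ran from 952021 to 3756559 per library. Without the ribosomal RNA precursor Rn45s, 6 shallow libraries had 384360 to 905988 reads (Il1rn-/- 1-b and 2-b with all 4 of wild-type set b) and 8 deep libraries (3 wild-type, 5 Il1rn-/-) had 1654868 to 2805693. Y-linked transcripts were present in 4 of the deep ones, Il1rn-/- 3-b and 4-b together with wild-type 1-a and 2-a. Genotype, depth and Y-linked transcripts were thus unevenly crossed. Medians and genotype differences of members are given beside values called depth-adjusted. These come from a model with the library group (deep or shallow) in place of the letter. The group was set by the Rn45s share, over 50% of reads in shallow libraries, and not by read number. Mitochondrial ribosomal RNA also differed, at 2.97% to 4.12% of the other reads in shallow and 8.82% to 16.6% in deep libraries. Which of these properties the term adjusts for was not tested. All 7 genes of the regulatory T cell list were present. CPM here are reads as scaled by the authors, and they do not sum to the same total in every library. The summed CPM of the B cell list was 25.1 to 65.3 in wild type and 17.8 to 47.0 in Il1rn-/-. The monocyte and macrophage list summed to 9.29 to 16.9 CPM in wild type and 2.15 to 26.9 in Il1rn-/-, and the plasmacytoid dendritic cell list to 12.7 to 28.5 and 13.3 to 29.4. The monocyte and macrophage sum was highest among Il1rn-/- libraries in 2-a, 3-b and 3-a (26.9, 18.5 and 14.5 CPM) and lowest of all libraries in 1-a (2.15), which were also the 3 Il1rn-/- libraries with the most members above their median, and the one with the fewest, as given below. Among wild-type libraries the order was not the same: 1-a had the highest sum (16.9) and the fewest members above their median (8). Of this list 7 of 8 genes were in the table. Lyz2 had reads in every library, and Csf1r had 0 reads in 5. Il1rn-/- 3-b had 52 reads of Lyz2, 6 of Csf1r, 1 of Itgam and 0 of Cd68. Il1rn-/- 1-b had 3, 0, 4 and 4 reads of the same genes. The part of other cell types in the differences was not tested.

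The promoters of these genes were read from RefSeq (GRCm38.p6), from 250 bases before to 50 bases after the start, for the 30 members that had an entry. A gene was counted once if any of its promoter entries held the core. The ISRE core GAAANNGAAA, or TTTCNNTTTC on the other strand, was found for 18 of 30 members (60%). It was found for 3.99% of all 27025 genes with an entry and 3.84% of the 9509 tested ones. The GAS core TTCNNNGAA, which reads the same on both strands, was found for 7 of 30 (23.3%). It was found for 9.55% of all genes with an entry and 8.41% of the tested ones. Among members with an entry, an ISRE core was found for all 3 GBP, 2 of 3 IRG, 2 of 4 OAS, 3 of 4 IFIT and all 3 sensor genes. It was found for 1 of 3 STAT and IRF genes, 1 of 1 in the ISG15 class, 2 of 4 antiviral effector genes and 1 of 5 remaining genes. The stretches below come from genes whose values are described in the following paragraphs; each is written along the gene's own strand, 5′ to 3′, lies upstream of the start, and has the ISRE core in capitals.
Gbp2, chr3:142620584-142620633, plus strand: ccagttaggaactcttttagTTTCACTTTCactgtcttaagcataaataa
Gbp7, chr3:142530263-142530312, plus strand: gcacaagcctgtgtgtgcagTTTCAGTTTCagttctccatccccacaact
Igtp, chr11:58199502-58199551, plus strand: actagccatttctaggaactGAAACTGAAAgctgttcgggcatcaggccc
Oas1a, chr5:120907526-120907559, minus strand: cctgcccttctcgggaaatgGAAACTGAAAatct
Ifit1, chr19:34640765-34640814, plus strand: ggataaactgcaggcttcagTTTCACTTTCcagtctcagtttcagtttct
Ifit3, chr19:34583353-34583402, plus strand: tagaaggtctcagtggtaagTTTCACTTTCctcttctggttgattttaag
Ifit3b, chr19:34607749-34607798, plus strand: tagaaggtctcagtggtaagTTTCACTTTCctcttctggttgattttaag
Isg15, chr4:156200855-156200904, minus strand: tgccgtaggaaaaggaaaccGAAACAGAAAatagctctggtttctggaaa
Stat2, chr10:128270256-128270305, plus strand: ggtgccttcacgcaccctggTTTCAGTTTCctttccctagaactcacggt
The stretches of Ifit3 and Ifit3b have the same letters. A match is a description of letters in a window and was not tested as a binding site.

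None of the 40 genes passed the genotype test, and most lay higher in Il1rn-/- cells. The genotype difference (log2 CPM in Il1rn-/- minus wild type, with the set letter as covariate) was positive for 33 members and negative for 7, with a median of 0.32, against a positive difference in 55.3% of all tested genes and a median of 0.04. At an adjusted p under 0.05 by limma, 0 of 40 members and 0 of 12329 genes were called, and the smallest adjusted p of any gene was 0.787. At an unadjusted p under 0.05, 8 members were higher, where the background was 3.53% of tested genes, and 0 were lower, where it was 1.98%. limma voom on recovered reads also called 0 genes and had 733 at an unadjusted p under 0.05, against 679 in the main model. The split of these genes turned with the scaling: it was 435 higher and 244 lower in the main model, 345 and 309 after centring libraries on their medians, 279 and 345 with CPM without ribosomal RNA, and 280 and 453 with voom. The members were 8, 8, 5 and 5 higher and 0 lower in the same 4 fits. In bulk RNA, a change in the share of responding cells and a change in RNA per cell cannot be told apart.

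After depth adjustment the median was 0.30, with 36 positive and 4 negative differences and 4 members at an unadjusted p under 0.05, all higher (background 1.31%). The 4 were Gbp2, Oasl2, the RNA sensor gene Ddx58 and Lgals3bp, and only Gbp2 and Oasl2 were among the 8 of the main model. The deep libraries alone gave a median of 0.33 and 37 positive differences, and the shallow libraries alone gave 0.25 and 27. No member had all 7 Il1rn-/- libraries above all 7 wild-type libraries, a pattern shown by 0.00811% of tested genes. For 12 members at least 6 of 7 Il1rn-/- values exceeded the wild-type mean, against 16% of tested genes.

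The libraries of one genotype were far from uniform. In set a, 32 of 40 members lay above their own median over the 14 libraries in Il1rn-/- 2-a and 36 in Il1rn-/- 3-a, but only 8 in Il1rn-/- 1-a. In the 3 wild-type libraries of the set the counts were 8, 10 and 19, so Il1rn-/- 1-a sat with the lowest wild-type libraries. The monocyte and macrophage sum given above was likewise lowest in Il1rn-/- 1-a (2.15 CPM). Wild-type 1-a, also at 8 members, had the highest wild-type sum (16.9 CPM). The part of that list in the member counts was not tested. Set b, in the order of the library numbers, had 14, 18, 19 and 25 among wild type against 26, 22, 27 and 16 among Il1rn-/-. Il1rn-/- 3-a held the highest value of 13 members and Il1rn-/- 3-b that of 9. Without Il1rn-/- 1-a the median difference was 0.39 and 13 members reached an unadjusted p under 0.05 (background 3.46%). Without Il1rn-/- 3-a the median was 0.24 and 4 members did so (background 3.5%), and without Il1rn-/- 2-a the number was also 4 (background 3.83%).

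**Figure D1:**
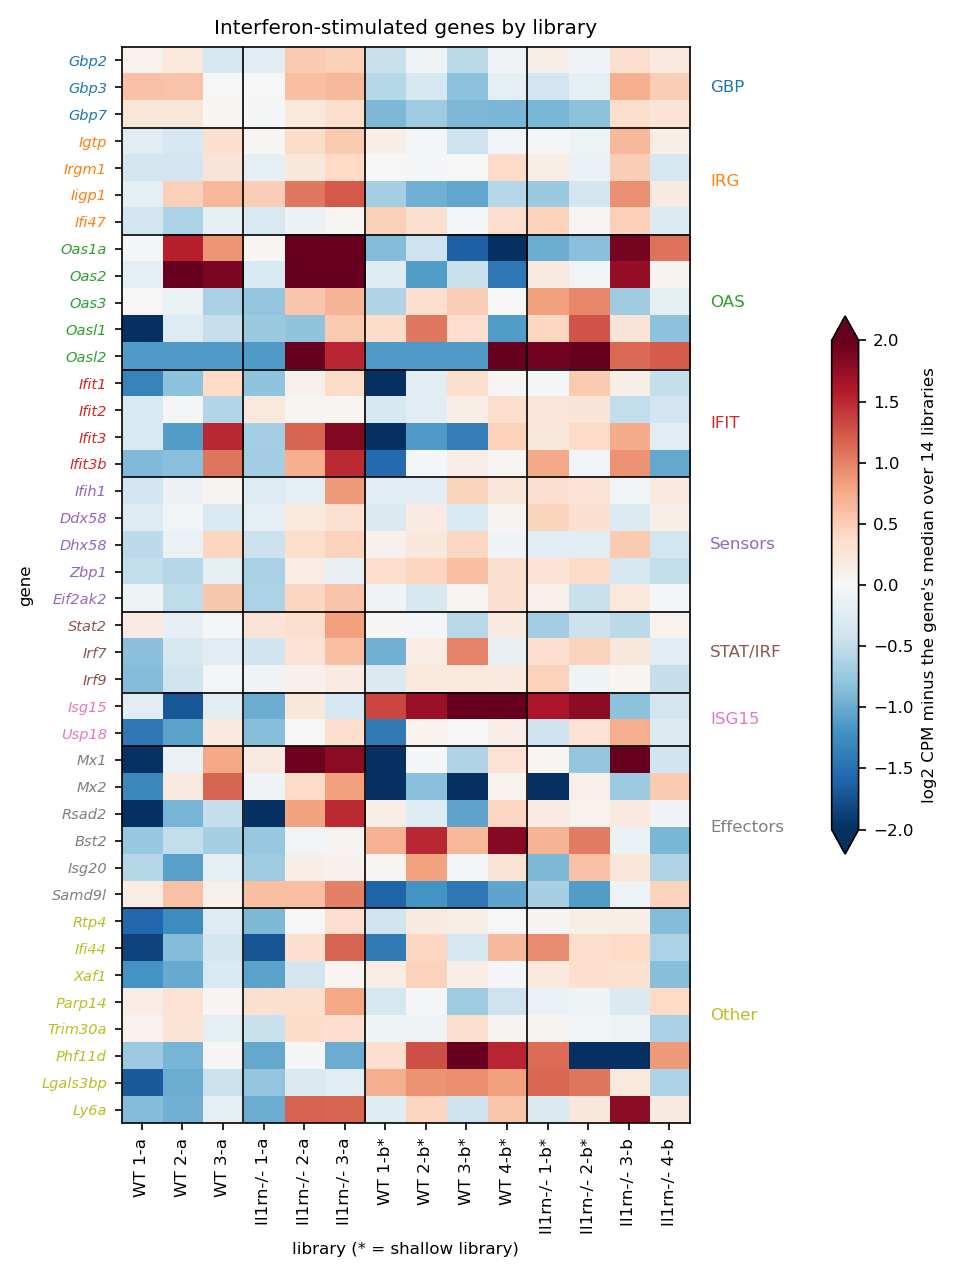
Each row is 1 of 40 genes, grouped by class, and each column 1 of 14 libraries, with shallow libraries starred. Colour is the log2 CPM minus the gene's median over the 14 libraries, limited to 2 on either side. The columns of Il1rn-/- 2-a and 3-a are mostly red, with 32 and 36 genes above their median, while the column of Il1rn-/- 1-a has 8. Gbp7, Iigp1 and Samd9l are blue in all 6 shallow libraries and Isg15 is red in them.

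The guanylate-binding protein genes were higher in Il1rn-/- in the pooled comparison by about the same amount, and that amount shrank when the library group was in the model. Their median difference was 0.37 with 3 of 3 positive. It was 0.14 after depth adjustment, 0.02 in set a and 0.58 in set b, where only the Il1rn-/- libraries included deep ones. GBPs are large GTPases that coat the membranes around intracellular microbes.

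Gbp2 was the GBP gene that differed least between the library groups. In set a its log2 CPM was 6.27, 6.41 and 5.86 in wild type and 6.0, 6.74 and 6.68 in Il1rn-/-. Set b had 5.75, 6.10, 5.68 and 6.14 in wild type and 6.32, 6.13, 6.56 and 6.40 in Il1rn-/-, from 44 to 128 reads and 130 to 301 reads. The genotypes overlapped in both sets, in set b only through wild-type 4-b and Il1rn-/- 2-b, and 6 of 7 Il1rn-/- values exceeded the wild-type mean. The difference was 0.37 ± 0.15 (SE; unadjusted p = 0.0229, adjusted p = 0.787 by limma), and 0.30 ± 0.14 after depth adjustment (unadjusted p = 0.0495 by limma). With 1 library left out at a time it ranged from 0.32 to 0.47.

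Gbp3 and Gbp7 followed the library group. The 7 wild-type libraries gave Gbp7 at 7.14, 7.35 and 8.31 (lowest, median, highest log2 CPM) and the 7 Il1rn-/- libraries at 7.15, 8.27 and 8.42. All 6 shallow libraries lay at 7.14 to 7.35 whatever their genotype, and all 8 deep ones at 8.02 to 8.42. The genotype difference of Gbp7 of 0.33 ± 0.20 became 0.03 ± 0.11 after depth adjustment. Gbp3 ran from 5.97 through 6.61 to 7.38 in wild type and from 6.41 through 7.28 to 7.51 in Il1rn-/-. Its difference of 0.38 ± 0.20 became 0.14 ± 0.15. For Gbp7 14.6% of the transcript's 32-base words occur in other genes' transcripts, so its reads could in part belong to a relative.

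All 4 immunity-related GTPase genes had positive differences, with a median of 0.20 that was 0.23 after depth adjustment. Irgm1 encodes a regulator that keeps the effector IRGs off the cell's own membranes, and Iigp1 encodes an effector. In set a all 4 were positive (median 0.34) and in set b 2 of 4 (median 0.10). Among the shallow libraries alone the median was 0.00 with 2 of 4 positive, and the same figures came from leaving out the libraries with Y-linked transcripts.

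Iigp1 had the largest difference of the class. Its log2 CPM in set a was 5.66, 6.32 and 6.50 in wild type and 6.33, 6.89 and 7.06 in Il1rn-/-. Set b had 5.16, 4.88, 4.81 and 5.27 in wild type and 5.10, 5.48, 6.76 and 6.02 in Il1rn-/-. The 2 highest values of set b were those of its 2 deep libraries, Il1rn-/- 3-b and 4-b, while Il1rn-/- 1-b lay within the wild-type range. The difference was 0.72 ± 0.22 (unadjusted p = 0.00392, adjusted p = 0.787 by limma), and 0.37 ± 0.18 after depth adjustment. Iigp1 was 1.22 log2 units lower in shallow than in deep libraries, a difference that passed the test over all genes (shallow minus deep -1.22, adjusted p = 2.67e-05 by limma).

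Igtp was higher by 0.30 ± 0.16 (0.25 after depth adjustment), from 7.15, 7.51 and 7.90 in wild type to 7.46, 7.68 and 8.20 in Il1rn-/- (lowest, median, highest log2 CPM). The ranges overlapped widely, and 3 Il1rn-/- libraries, 2-a, 3-a and 3-b, exceeded every wild-type library. Its transcript shares 15.7% of 32-base words with Irgm2. Ifi47, the IRG gene with the most reads (255 to 1484 per library), was at 7.59, 8.21 and 8.71 in wild type and 7.93, 8.25 and 8.71 in Il1rn-/-, a difference of 0.06 ± 0.16 (0.20). Irgm1 differed by 0.10 ± 0.16 (0.12).

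**Figure D2:**
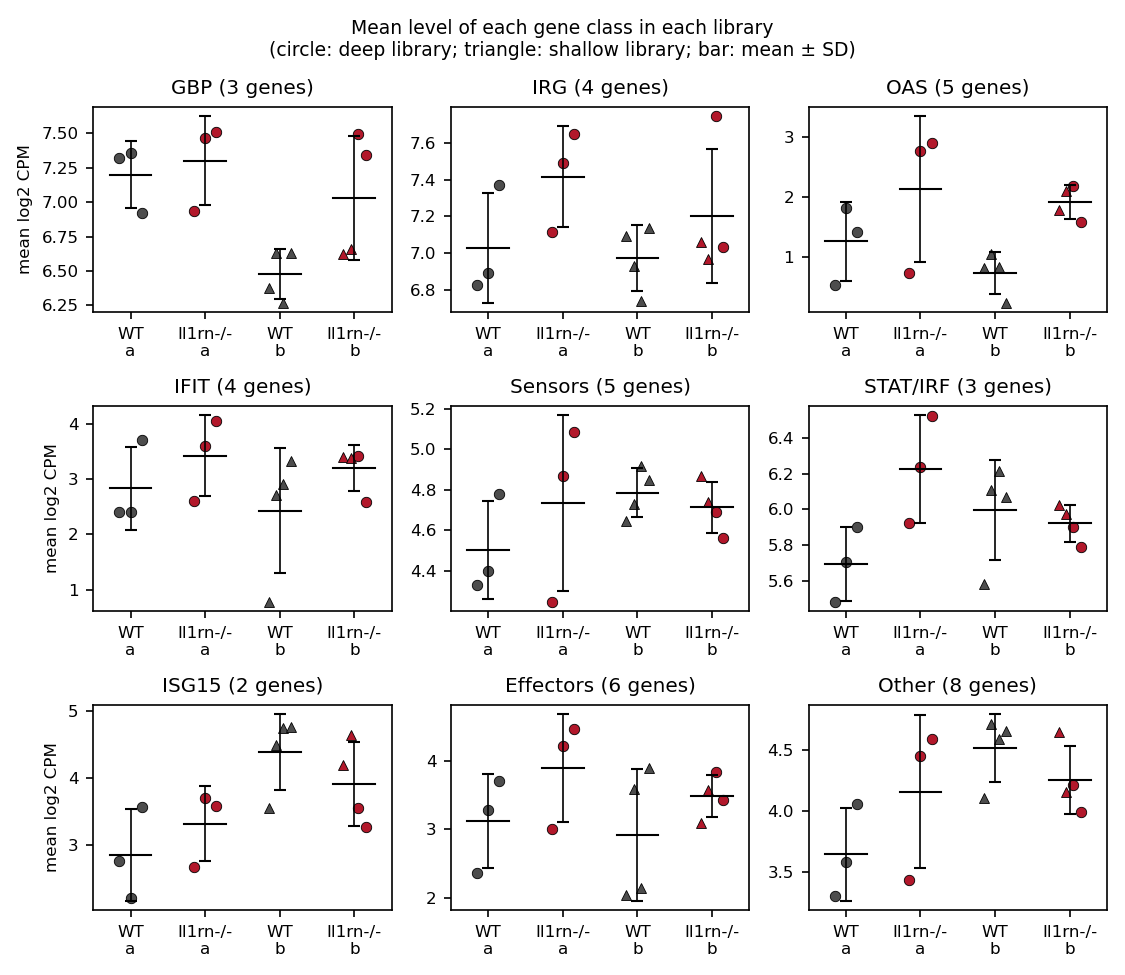
Each panel gives 1 gene class, with the mean log2 CPM of its genes on the y axis and the 4 groups of genotype and set on the x axis; levels are not comparable between panels because they are not corrected for length. Each point is a library (circle deep, triangle shallow) and bars show the group mean ± SD. The GBP panel separates deep from shallow libraries, and in the OAS panel the 4 Il1rn-/- libraries of set b, at 1.58 to 2.19, lie above the 4 wild-type ones, at 0.24 to 1.06.

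The OAS and IFIT genes had the largest class differences together with the effectors, at low read numbers. OAS enzymes make the 2′-5′ oligoadenylates that activate RNase L, and IFIT proteins bind foreign RNA ends. All 5 OAS genes were positive (median 0.77; 0.73 after depth adjustment) and all 4 IFIT genes were positive (median 0.55; 0.58). Taken as 1 group of 9 genes, the median was 0.60 in all libraries, 0.72 in set a, 0.54 in set b, 0.49 in the deep and 0.84 in the shallow libraries. In the 7 genes of the GBP and IRG group the same figures were 0.33, 0.29, 0.43, 0.30 and 0.03. The difference between the groups was not tested.

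The class means differed among libraries of one genotype. The mean log2 CPM of the 5 OAS genes in set a, in the order of the library numbers, was 0.54, 1.82 and 1.42 for wild type against 0.73, 2.77 and 2.90 for Il1rn-/-. Set b had 0.82, 1.06, 0.84 and 0.24 for wild type against 1.79, 2.10, 2.19 and 1.58 for Il1rn-/-. In set b the genotypes did not overlap, but Oasl2, with 0 reads in 3 of the 4 wild-type libraries there, carried most of the gap. Without Oasl2 the highest wild-type mean of set b was 2.22 and the lowest Il1rn-/- mean 2.29. In set a Il1rn-/- 1-a fell below wild-type 2-a and 3-a. The IFIT mean overlapped between genotypes in both sets, with wild-type 1-b lowest at 0.78 and Il1rn-/- 3-a highest at 4.05.

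Oas1a was the clearest OAS gene by p and rested on few reads. Its log2 CPM was 1.90, 3.50 and 2.83 in wild type and 1.98, 4.40 and 4.55 in Il1rn-/- of set a, from 13 to 48 and 18 to 106 reads. Set b gave 1.07, 1.52, 0.32 and -3.58 in wild type and 0.94, 1.11, 3.86 and 3.03 in Il1rn-/-. The value of -3.58 is the table's floor for 0 reads (wild-type 4-b), and the other shallow libraries had 1 to 4 reads. The difference was 1.76 ± 0.73 (unadjusted p = 0.0266, adjusted p = 0.787 by limma) and 0.97 ± 0.66 after depth adjustment. Of its 32-base words 68.2% occur in other transcripts, nearly all in Oas1g, so the reads of these 2 genes may have been mixed.

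Oasl2 was at 0 reads in 6 of 7 wild-type libraries and in 1 of 7 Il1rn-/- libraries. The others had 1 to 5 reads, and the gene passed the filter by being over 1 CPM in exactly 3 libraries, 2 of them Il1rn-/-. Its fitted difference of 2.04 ± 0.87 (unadjusted p = 0.0312, adjusted p = 0.787 by limma) depends on the floor and is no measure of fold, as does its depth-adjusted value of 2.33. Oas3, the OAS gene with the most reads (21 to 157), was at 3.79, 4.42 and 4.92 in wild type and 3.65, 4.99 and 5.39 in Il1rn-/-. Its 4 highest libraries were all Il1rn-/- (2-a, 3-a, 1-b and 2-b) and its lowest was Il1rn-/- 1-a, with a difference of 0.27 ± 0.29 (0.45 after depth adjustment). Oas2 and Oasl1 differed by 0.77 ± 0.56 and 0.38 ± 0.48, or by 0.27 and 0.73 after depth adjustment.

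Ifit1 had the most reads of its class, 12 to 272. It was at 3.03, 4.98 and 5.58 log2 CPM in wild type and 4.37, 5.29 and 5.71 in Il1rn-/- (lowest, median, highest), a difference of 0.51 ± 0.34 (0.57 after depth adjustment). Wild-type 3-a, at 5.58, exceeded 6 of 7 Il1rn-/- libraries, so the groups overlapped widely. Ifit3 was at 1.39, 0.57 and 3.21 in wild type and 1.01, 2.86 and 3.55 in Il1rn-/- of set a. Set b had -3.58, 0.56, 0.32 and 2.16 in wild type, from 0 to 8 reads, and 1.91, 2.08, 2.44 and 1.47 in Il1rn-/-, from 6 to 17 reads. Each of the 7 Il1rn-/- values exceeded the wild-type mean (6 or 7 did so for 16% of tested genes). The difference was 1.53 ± 0.72 (unadjusted p = 0.0471, adjusted p = 0.787 by limma) and 1.20 after depth adjustment. Both the count and the difference depend in part on the floor, where wild-type 1-b lay with 0 reads. With 1 library left out at a time the difference ranged from 0.86 to 1.89. Ifit3 shares 61.1% of its 32-base words with Ifit3b, which differed by 0.60 ± 0.51 (0.59), and Ifit2 differed by 0.13 ± 0.19 (0.22).

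The sensor genes differed least of the larger classes. Ifih1 (MDA5) and Ddx58 (RIG-I) encode RNA sensors, Zbp1 a sensor of Z-form nucleic acid and Eif2ak2 (PKR) a kinase that halts translation on double-stranded RNA. Their median difference was 0.04, with 3 of 5 positive, equal to the median of all tested genes to 2 decimals, and 0.03 with 4 of 5 positive after depth adjustment. All 5 were positive in set a (median 0.21) and 2 of 5 in set b (median -0.03). Without ribosomal RNA in the CPM the class median was -0.03.

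Ddx58 was at 5.12, 5.17 and 5.59 in wild type and 5.15, 5.63 and 5.87 in Il1rn-/- (lowest, median, highest log2 CPM). The 4 highest libraries were Il1rn-/- 2-a, 3-a, 1-b and 2-b, as for Oas3, and the difference was 0.27 ± 0.15, or 0.33 ± 0.14 after depth adjustment (unadjusted p = 0.0265, adjusted p = 1.0 by limma). Ifih1 was at 3.98, 4.25 and 4.81 and at 4.11, 4.56 and 5.21, a difference of 0.20 ± 0.19 (0.26 after depth adjustment). Zbp1 was one of the 7 members lower in Il1rn-/-: 5.24, 6.15 and 6.43 in wild type and 5.18, 5.68 and 6.20 in Il1rn-/-. Its difference of -0.18 ± 0.18 became 0.03 ± 0.14 after depth adjustment. All 6 shallow libraries lay at 6.09 or above for Zbp1 and all 8 deep ones at 5.96 or below. Dhx58 and Eif2ak2 differed by -0.04 ± 0.21 and 0.04 ± 0.24, or by -0.04 and 0.01 after depth adjustment.

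The STAT and IRF factor genes had a median difference of 0.15 with 3 of 3 positive, or 0.26 with 2 of 3 positive after depth adjustment. STAT2 and IRF9 are parts of the type I complex, and IRF7 amplifies type I interferon production. The class median was 0.49 in set a against -0.10 in set b, a difference that was not tested.

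Irf7 was at 4.68, 5.42 and 6.63 log2 CPM in wild type and 5.24, 5.93 and 6.24 in Il1rn-/- (lowest, median, highest). The single highest library was wild-type 3-b, and the difference was 0.38 ± 0.24, or 0.48 ± 0.24 after depth adjustment. Irf9 was at 5.96, 6.78 and 7.04 and at 6.34, 6.86 and 7.29, a difference of 0.15 ± 0.17 (0.26 after depth adjustment) with almost complete overlap. Stat2 was at 5.69, 5.36 and 5.49 in wild type and 5.78, 5.88 and 6.34 in Il1rn-/- of set a, with no overlap. In set b it was at 5.54, 5.51, 4.97 and 5.71 in wild type and at 4.82, 5.10, 4.99 and 5.59 in Il1rn-/-. Here the order was turned, with 3 of 4 Il1rn-/- libraries below 3 of 4 wild-type ones. The genotype difference of Stat2 was 0.49 ± 0.25 in set a and -0.31 ± 0.22 in set b. Over both sets it was 0.03, or -0.08 after depth adjustment.

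ISG15 is a ubiquitin-like protein that is attached to other proteins after interferon, and USP18 removes it and also dampens the type I receptor. Usp18 was at 3.73, 5.17 and 5.36 in wild type and 4.32, 5.17 and 5.90 in Il1rn-/- (lowest, median, highest log2 CPM), a difference of 0.48 ± 0.29 (0.55 after depth adjustment) with equal medians to 2 decimals. Isg15 was at 1.79, 0.32 and 1.78 in wild type and 1.01, 2.23 and 1.66 in Il1rn-/- of set a. In set b it was at 3.35, 3.74, 4.31 and 4.23 in wild type and 3.63, 3.81, 1.19 and 1.64 in Il1rn-/-, from 15 to 34 and 7 to 27 reads. All 6 shallow libraries lay at 3.35 or above and all 8 deep ones at 2.23 or below. The genotype difference of Isg15 was -0.62 ± 0.47, or 0.07 ± 0.33 after depth adjustment, so its sign depends on that term. Shallow minus deep it was 2.41 (adjusted p = 1.17e-05 by limma).

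The 6 antiviral effector genes had a median difference of 0.73 with 4 positive, or 0.50 with 6 positive when the library group was the covariate. Samd9l, which encodes a restriction factor that lowers translation, had the smallest unadjusted p of all 40 members. Its log2 CPM in set a was 6.55, 6.98 and 6.49 in wild type and 7.0, 7.0 and 7.41 in Il1rn-/-, without overlap. In set b it was 4.79, 5.21, 4.97 and 5.35 in wild type and 5.74, 5.28, 6.31 and 6.86 in Il1rn-/-, overlapping only through wild-type 4-b and Il1rn-/- 2-b. The difference was 0.75 ± 0.21 (unadjusted p = 0.00176, adjusted p = 0.787 by limma) and 0.32 ± 0.16 after depth adjustment (unadjusted p = 0.0669 by limma). Within the deep libraries alone it was 0.24 and within the shallow ones 0.43.

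Mx1, a dynamin-like GTPase gene that many inbred laboratory strains carry in a defective form, was at -0.11, 1.74 and 2.64 in wild type and 2.06, 3.82 and 3.68 in Il1rn-/- of set a. Set b gave -3.58, 1.84, 1.27 and 2.16 in wild type, from 0 to 8 reads, and 1.91, 1.11, 3.86 and 1.47 in Il1rn-/-, from 4 to 46 reads. Il1rn-/- 2-a, 3-a and 3-b stood above all other libraries. The difference was 1.71 ± 0.76 (unadjusted p = 0.0372, adjusted p = 0.787 by limma) and 1.36 ± 0.77 after depth adjustment. Mx2 and Rsad2 (viperin) differed by 1.25 ± 0.77 and 0.71 ± 0.57, Bst2 (tetherin) by -0.41 ± 0.34 and the exonuclease gene Isg20 by -0.06 ± 0.26. After depth adjustment these were 0.69, 0.93, 0.03 and 0.08, so the last 2 turned sign. Bst2, like Isg15, was higher in shallow libraries (shallow minus deep 1.54, adjusted p = 0.000113 by limma).

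Of the 8 remaining genes 6 had positive differences, with a median of 0.18, or 0.40 with 6 positive after depth adjustment. Parp14, an ADP-ribosyltransferase gene, was at 6.04, 6.17 and 5.92 in wild type and 6.20, 6.22 and 6.66 in Il1rn-/- of set a, without overlap. In set b it was at 5.54, 5.86, 5.17 and 5.48 in wild type and 5.76, 5.79, 5.61 and 6.30 in Il1rn-/-, overlapping through wild-type 2-b. The difference was 0.34 ± 0.15 (unadjusted p = 0.034, adjusted p = 0.787 by limma) and 0.20 ± 0.15 after depth adjustment.

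Ly6a, which encodes the T cell activation antigen Sca-1, ranged from 4.62 through 5.34 to 6.14 in wild type and from 4.59 through 5.82 to 7.39 in Il1rn-/-. Il1rn-/- 2-a, 3-a and 3-b, at 6.77, 6.76 and 7.39, stood above all others, the same 3 libraries as for Mx1 and Igtp, while Il1rn-/- 1-a was the lowest of all 14. The difference was 0.71 ± 0.35 (unadjusted p = 0.0537, adjusted p = 0.787 by limma) and 0.74 after depth adjustment. It was 1.34 in the deep and -0.11 in the shallow libraries alone, and the transcript shares 31.2% of its 32-base words with other genes, mainly Ly6c1. Rtp4, Ifi44, Xaf1 and Lgals3bp differed by 0.30 ± 0.26, 0.66 ± 0.45, 0.06 ± 0.23 and 0.03 ± 0.28. After depth adjustment they were at 0.50, 0.89, 0.30 and 0.51, with Lgals3bp at an unadjusted p of 0.0242 (adjusted p = 1.0 by limma). Trim30a and Phf11d had negative differences, -0.12 ± 0.16 and -1.40 ± 0.80 (-0.11 and -1.11 after depth adjustment), the latter from 0 to 3 reads per library.

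Taken set by set, set a had the more even picture and set b the larger single differences. In set a 38 of 40 differences were positive with a median of 0.40, where 53.8% of tested genes were positive. At an unadjusted p under 0.05, 2 members were higher, Rtp4 and Ly6a (background 1.38%). The only libraries of set a with Y-linked transcripts were wild-type 1-a and 2-a, so genotype and these transcripts cannot be fully told apart there. Over both sets, without all libraries with Y-linked transcripts, 30 differences were positive and 10 negative (background 52.9% positive), with a median of 0.22. In set b 24 of 40 were positive with a median of 0.22, where 53.8% of tested genes were positive. At an unadjusted p under 0.05, 7 members were higher (background 8.57%) and 4 were lower (background 6.42%). The 7 were Gbp2, Gbp3, Gbp7, Iigp1, Oas1a, Ifit3 and Samd9l, and the 4 were Isg15, Bst2, Zbp1 and Phf11d. At an adjusted p under 0.05 limma called 0 genes in either set, with 243 and 1848 genes at an unadjusted p under 0.05. The split of these genes also moved with the scaling. In set a, 170 were higher and 73 lower in the main model, against 120 and 107 centred on the median and 101 and 95 without ribosomal RNA. In set b it was 1056 and 792, against 753 and 950 without ribosomal RNA and 920 and 1143 with voom. Without Il1rn-/- 2-b the set b contrast called 230 genes (1.87% of those tested), among them 1 member, Samd9l, at a difference of 1.22 ± 0.24 (adjusted p = 0.0441 by limma). That contrast sets 2 deep and 1 shallow Il1rn-/- libraries against 4 shallow wild-type ones, and Samd9l was 1.51 lower in shallow libraries. Genotype and library group therefore cannot be told apart there.

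No difference between the sets was shown for any member. The difference was positive in both sets for 23 members (background 27%), and the set b difference minus that of set a was positive for 11 and negative for 29, where 51.5% of tested genes were positive. Stat2 had the smallest p for the difference between the sets, -0.79 ± 0.33 (unadjusted p = 0.027, adjusted p = 0.610 by limma), followed by Bst2 at -1.38 (unadjusted p = 0.037, adjusted p = 0.621 by limma). No other member had an unadjusted p under 0.05, where the background for lower values was 4.53% (559 genes, with 409 higher; 457 and 524 after centring libraries on their medians). Il1rn-/- libraries lay above all wild-type libraries of their set for 4 members in set a, Ifit2, Stat2, Samd9l and Parp14 (background 4.36%), and for 1 in set b, Oas2 (background 2.36%).

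**Figure D3:**
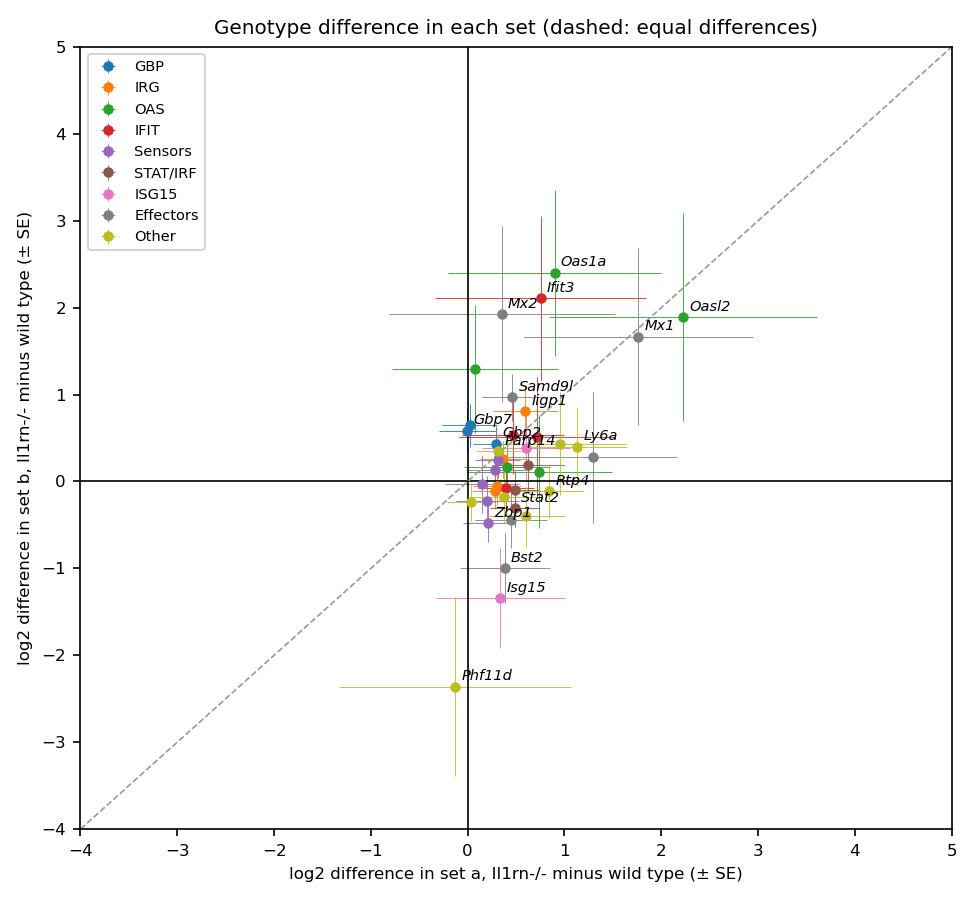
Each point is 1 of 40 genes, with its log2 difference, Il1rn-/- minus wild type, in set a on the x axis and in set b on the y axis, each with its standard error, coloured by class. Points to the right of 0 number 38 and points above 0 number 24. Isg15, Bst2, Zbp1 and Stat2 lie in the lower right, and the GBP genes Gbp3 and Gbp7 lie near 0 in set a and at 0.65 and 0.58 in set b.

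More members passed the tests for the letter and for the library group than the test for genotype. The letter (b minus a) called 10 members, 5 higher and 5 lower, against 19.5% of tested genes. The library group called 14 members, 7 higher and 7 lower in shallow libraries, against 36.1% of tested genes, so the members' shares were near the background for both. Those lower included Gbp7 (-1.06), Iigp1 (-1.22), Oas1a (-2.74) and Samd9l (-1.51), and those higher included Isg15 (2.41), Lgals3bp (1.69), Bst2 (1.54) and Xaf1 (0.86). The shallow minus deep difference was weakly related to transcript length across the 40 members (Spearman's rho -0.32, a description over genes that share the same libraries). The longest coding transcripts of Isg15 and Bst2, 756 and 792 bases in GENCODE M21, were the shortest among the members.

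Genes of the same pathway that were not members were examined in further lists, and 0 were called in those given here. For the counts of positive differences in these lists the background was 55.3% of all tested genes. The kinase genes Tyk2 and Jak2, whose products act directly below the interferon receptors, differed by 0.45 ± 0.22 and 0.36 ± 0.26, or by 0.15 and 0.17 after depth adjustment.

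The other IRF genes split 4 to 3 (median 0.07; -0.02 after depth adjustment). Irf1, the factor most tied to interferon-gamma, was at 6.37, 7.01 and 8.72 in wild type and 6.41, 8.37 and 9.40 in Il1rn-/- (lowest, median, highest log2 CPM). Its difference of 0.62 was 0.06 after depth adjustment; all 6 shallow libraries lay at 7.01 or below. Irf2, which competes with IRF1 for its sites, differed by -0.54 ± 0.20 (unadjusted p = 0.015, adjusted p = 0.787 by limma) and by -0.27 after depth adjustment, and Irf4 by -0.26 (-0.17). Of the 9 brakes of the pathway 6 were positive (median 0.16; 0.01 after depth adjustment), with Ptpn6, Ptpn2 and Ptpn1 at 0.26, 0.16 and -0.12, or 0.10, -0.01 and -0.18 after depth adjustment.

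Of 13 further GBP and IRG genes 9 were positive with a median of 0.55 (0.15 after depth adjustment). At an unadjusted p under 0.05 by limma, 5 were higher (background 3.53%) and 0 lower (background 1.98%). The leading genes were Gbp9 at 0.55 ± 0.17, Gbp10 at 1.44 ± 0.51 and Gbp4 at 0.65 ± 0.24, which came to 0.31, 0.66 and 0.24 after depth adjustment. Of 38 further interferon-stimulated genes 28 were positive (median 0.27; 0.19 after depth adjustment). Ddx60 led them at 0.78 ± 0.26, then Slfn8 at 1.16 ± 0.38 and Parp10 at 0.38 ± 0.16. For Ddx60 7 of 7 Il1rn-/- values lay over the mean of wild type (6 or 7 did so for 16% of tested genes). Ddx60, Slfn8 and Parp10 came to 0.62, 0.78 and 0.19 after depth adjustment.

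Of 16 genes of antigen presentation by MHC class I 14 were positive (median 0.24; 0.17 after depth adjustment), led by the peptide transporter gene Tap1 at 0.48 ± 0.18, H2-T23 at 0.75 ± 0.31 and H2-Q4 at 0.62 ± 0.27, which came to 0.24, 0.33 and 0.24 after depth adjustment. H2-T23 and H2-Q4 were at 0.00 and 0.03 when the libraries with Y-linked transcripts were left out. Of the adaptors of nucleic acid sensing 4 of 10 were positive (median -0.06; 0.06 after depth adjustment), with Tbk1, Ikbke and Tmem173 (STING) at 0.53, 0.25 and -0.20, or 0.13, 0.03 and 0.01 after depth adjustment. The 3 tested chemokine genes, Cxcl10, Ccl5 and Cxcl9, were at -0.38 ± 0.48, -0.18 ± 0.53 and -0.16 ± 0.97, or -0.26, 0.12 and 0.72 after depth adjustment. They had 2 to 26, 2 to 16 and 0 to 4 reads per library, so the values of Cxcl9 depend on the floor. Of the interferon genes listed, 1 was found in the table, Ifng, at 0 to 12 reads in wild type and 0 to 44 in Il1rn-/-, a difference of 1.43 ± 0.97 (0.45 after depth adjustment).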

How the data were processed

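RNA of 14 libraries was profiled by Smart-Seq2, per the labels' protocols, and quantified with Cuffquant 2.2.1; the submitters' processing notes also name BWA, TopHat2 2.0.10 and Cuffnorm. Build, annotation and the treatment of strand and shared reads: not given in the sources used here. The deposited values are log2 CPM, scaled between libraries by the authors. Whole reads were recovered from their steps (tolerance 0.001, met by 100%) and used for depth, reads per gene and voom.

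The 12329 genes above 1 CPM in 3 or more libraries entered limma 3.58.1 in R 4.3.3 (intensity trend, genotype and letter as terms, two-sided, Benjamini-Hochberg over all of them, threshold 0.05). A 4-group model gave the contrasts within sets. The step was also run on simulated counts. These held no effect of the letter or library group on expression, so that run cannot speak for such effects. Members, classes and lists were chosen with earlier results of these data known, so sign counts and medians carry no test. Values by library are given for members with an unadjusted p under 0.05, the 2 with the smallest p and the 1 with the most reads in each class, and summaries for the 3 with the smallest p in other lists and Irf1 (1 gene and its list are not reported here); other members named with values by library, such as Stat2, were chosen after their values were seen. Alternatives covered filters, pseudocount, scaling, covariates, variance models, voom, subsets and each library left out. Without molecular identifiers reads are not separate molecules, and low reads limit precision.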

Additional observations from a re-analysis of the deposited data

Results flagged for a closer look

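In 128 groups of 4 or 7 libraries examined for a single outlying value, over the 22 genes given by library, the 9 class means and the mean of all members, 9 held one, where chance alone gives about 1 in 20. Wild-type 1-b was the low library for 4 genes: Ifit3 at -3.58 log2 CPM (next lowest of the 7 wild-type libraries 0.32), and, among the 4 wild-type libraries of set b, Mx1 at -3.58 (next 1.27), Usp18 at 3.76 (next 5.17) and Irf9 at 6.53 (next 7.01). Ifit3 and Mx1 had 0 reads there. Wild-type 4-b was the high library for Oasl2 at 0.24, among 7 and among 4, since the others had 0 reads (-3.58). Wild-type 2-b was high for Gbp7 among the 4 of set b, at 7.35 (next 7.16). Among the 4 Il1rn-/- libraries of set b, 3-b was high for the IRG mean at 7.75 (next 7.06) and 4-b low for the IFIT mean at 2.58 (next 3.39).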

How the results depend on the processing

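The genotype call count over all genes was 0 in every alternative run except set a alone (1), the deep libraries alone (2) and the shallow libraries alone (13). With 1 library left out the count was 0 to 1 in set a (1 without wild-type 3-a), and 0 to 230 in set b (3 without wild-type 1-b, 7 without Il1rn-/- 1-b, 230 without Il1rn-/- 2-b). CPM without ribosomal RNA gave 3 in set b. The letter called 2408 genes, and 1355 to 3376 with 1 library left out, with 1570 without wild-type 1-a and 1355 without wild-type 2-a. The difference between sets called 0 throughout. The members' median ran from 0.22 to 0.40, the latter in set a alone.

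The number of members at an unadjusted p under 0.05, a count added after seeing the data, was 8. It was 5 with CPM without ribosomal RNA, 5 with voom, 4 with the stricter filter (CPM over 4 in at least 7 libraries), 3 without the letter term and 4 with the library group, with or without Y-linked transcripts. It was 4 without the intensity trend, 1 in set a alone, 5 in set b alone, 1 in deep libraries, 3 in shallow libraries, 5 without the libraries with Y-linked transcripts and 4 to 13 with 1 library left out. It was 5 without wild-type 1-b and 5 without wild-type 3-b. Leaving both Il1rn-/- 3-b and 4-b out gave 6.

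Class medians moved by more than the spread between replicates for the GBP genes in set a (0.019) and the STAT and IRF genes in set a (0.49) and set b (-0.10). Of 418 alternatives of the 22 genes given by library, 8 changed sign and 0 passed or lost the threshold: Gbp7 in set a (-0.0026), Ifi47 without wild-type 2-a (-0.0056, where leaving out 1 library gave up to 0.15) and in set b (-0.11), Zbp1 with the library group (0.030) and in set a (0.21), Irf9 in set b (-0.10), and Isg15 with the library group (0.068) and in set a (0.34). The cause was not tested.

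Replicate numbers are shared between genotypes, and libraries of the same number did not deviate together (correlations of their deviations -0.15 to 0.00052), so they were not treated as pairs. With a replicate block 10 members reached an unadjusted p under 0.05, the median was 0.32, and 0 genes were called for genotype, in set a, in set b or for the difference between sets. The letter could not be estimated with the block.

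Members with few reads limit what can be read here: Oasl2 and Phf11d had 14 and 23 reads over all libraries, and Oas1a, Ifit3, Mx1 and Mx2 had libraries at 0.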
